A study of Homo sapiens with 32 samples.

Results

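The genes that drive a human cell through G1 were followed in RNAseq of 2 established cell lines, HEK293T (derived from embryonic kidney) and U2OS (derived from an osteosarcoma). They are the D-type cyclins CCND1, CCND2 and CCND3, their kinases CDK4 and CDK6, the E-type cyclins CCNE1 and CCNE2, and their kinase CDK2. These 8 genes were chosen by name, with earlier results of these data known. Each of the 8 matched 1 of the 60107 genes in the count table. Counts came from the 3′ ends of transcripts and therefore do not grow with transcript length. Levels of different genes are set side by side below as scaled CPM. Whether the genes are counted equally well in other respects was not checked, which limits sums, shares and ratios of different genes. Scaled CPM is the count on a gene divided by all counts on genes and multiplied by 1000000, with the library size corrected by the TMM factors of edgeR.

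In G1, mitogens raise the D-type cyclins, which bind CDK4 or CDK6, and the kinase adds phosphate to the retinoblastoma protein (RB1). Phosphorylated RB1 lets go of the E2F factors, which turn on CCNE1, CCNE2 and the genes of DNA replication. Cyclin E then activates CDK2 and the cell enters S phase, while CDK inhibitors such as CDKN1A and CDKN1B hold these kinases back, CDKN1A above all after DNA damage through p53.

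The study asked how cells respond to lost ATM, the kinase that signals DNA double-strand breaks, and to camptothecin (CPT), a drug that traps topoisomerase I on DNA. Libraries are named here by the number in their titles. Libraries 26 to 29 are labelled U2OS CPT and 30 to 33 U2OS DMSO, the solvent control. Libraries 22 to 25 are labelled HEK293T DMSO, and 18 to 21 are labelled HEK293T ATM KO, although the study's methods describe an ATM inhibitor (KU-55933) for RNAseq of this line. Libraries 2, 4, 6 and 8 are labelled HEK293T CPT, and 3, 5, 7 and 17 HEK293T DMSO. Libraries 10, 12, 14 and 16 are labelled U2OS ATM KO, and 1, 11, 13 and 15 U2OS WT. The labels give HEK293T cells 24 h of drug or DMSO followed by 48 h of recovery, and describe U2OS cells as untreated and grown for 72 h, in 1 text shared by all libraries. The U2OS libraries 26 to 33 are nevertheless labelled as treated with CPT or DMSO, and 24 h and 48 h are taken for them from the study's methods. The study's methods state that the U2OS ATM KO line was derived from single clones after CRISPR/Cas9, so it stands for the clone as much as for the lost gene. The study describes its samples as 4 independent repeats of each experiment, while the labels do not say which library belongs to which repeat. The p-values below measure the spread between these libraries, and that they are independent repeats rests on the study's description.

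The cell line of a library was checked against markers, and 14 of the 32 libraries went against their label. The summed level of 5 U2OS markers (CAV1, CD44, ANXA1, TGFBI and AXL) lay between 566 and 623 scaled CPM in the U2OS DMSO libraries 30 to 33, against 26.7 to 55.7 in libraries 18 to 25. Libraries 1 to 8 lay between 659 and 1074, yet 7 of these 8 are labelled HEK293T. Libraries 10 to 17 lay between 21.3 and 80.9, yet 7 of these 8 are labelled U2OS. The sum of 5 HEK293T markers (LIN28B, TUBB2B, CKB, SALL2 and CDKN2A) split the libraries the same way. It lay between 1173 and 1706 in libraries 10 to 17, between 1007 and 1326 in 18 to 25, and between 120 and 229 in all others. Among single markers, CDKN2A was at 0 to 1.43 scaled CPM in every library of 1 to 8 and 26 to 33, and at 146 to 426 in every library of 10 to 25. Libraries 1 and 17 matched their labels.

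**Figure D1:**
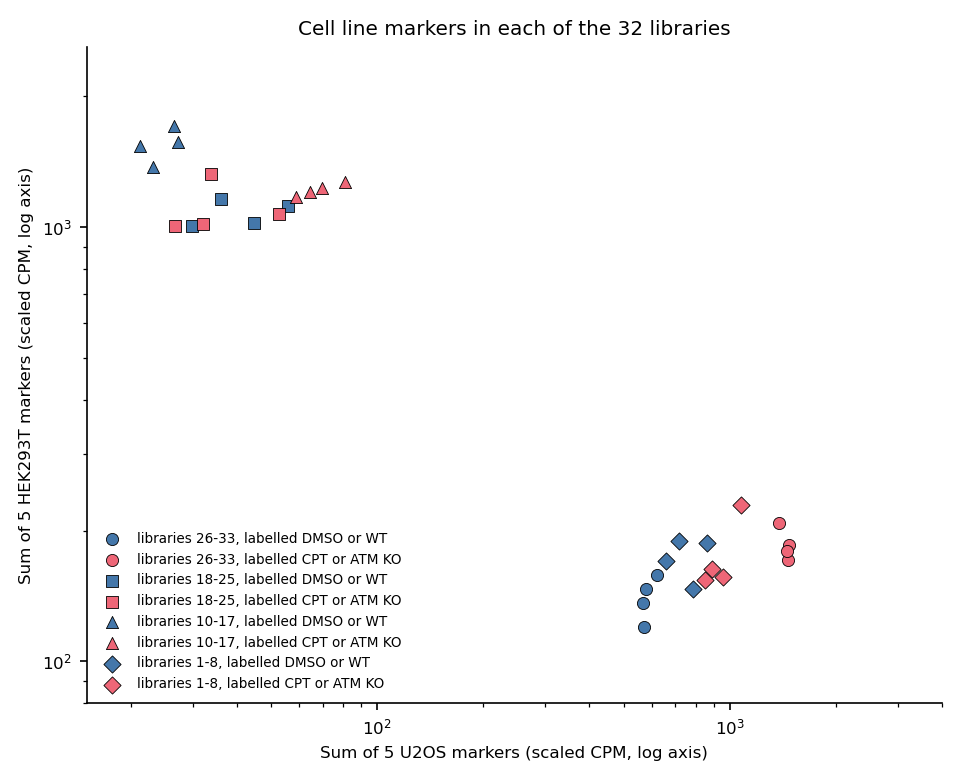
Each point is 1 of the 32 libraries. The horizontal axis is the summed scaled CPM of 5 U2OS markers and the vertical axis that of 5 HEK293T markers, both on log scales, with shape for the library numbers and colour for the labelled condition. Libraries 1 to 8 lie beside the U2OS libraries 26 to 33, and 10 to 17 beside the HEK293T libraries 18 to 25.

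Since libraries 1 and 17 sit with numbers whose other labels name another line, libraries 1 to 8 and 10 to 17 were each compared as even against odd numbers. The even numbers are those labelled CPT (2 to 8) or ATM KO (10 to 16), and the odd numbers those labelled DMSO or WT. Levels in these 16 libraries are given by number and label, and no direction is drawn for CPT or for lost ATM from them. ATM itself was at 27.9 to 36.5 scaled CPM in the libraries labelled U2OS ATM KO and at 21.1 to 33.2 in the odd numbers beside them (log2 fold change 0.22, SE 0.16, adjusted p = 0.305). In libraries 1 to 8 it differed by -0.31 (SE 0.17, adjusted p = 0.255), and in 18 to 25 by -0.06 (SE 0.12, adjusted p = 0.977). A 3′ count does not show an edit elsewhere in the gene. The even numbers of 10 to 17 also carried HEK293T markers, against their U2OS label, and the study describes an inhibitor for 18 to 21. For these reasons the ATM values do not check a knockout.

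Counts on genes ranged from 1232674 to 6362433 per library, and 3 counts then stand for 2.43 to 0.472 CPM. In GRCh38 (GENCODE 29), CCND1 is on chromosome 11, CCND2, CDK4 and CDK2 are on 12, CCND3 is on 6, CDK6 on 7, CCNE1 on 19 and CCNE2 on 8. All 8 genes passed the filter on low counts in every comparison. CDK4, CDK2, CCNE2, CCND1, CCND2, CCND3 and CDK6 each overlap another annotated gene, among them TSPAN31 for CDK4, PMEL for CDK2 and INTS8 for CCNE2. Whether counting used the strand is not given in the sources used here, so reads of such partners may enter these counts. The RNA was that of whole cultures, and a smaller share of cells that express a gene cannot be told apart from less of its RNA in each cell.

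CDK4 and CDK6 bind the same cyclins, and their RNAs moved in opposite directions in U2OS cells. Their promoter windows are shown for that reason, since both genes are in the RefSeq promoter table (GRCh38.p14), as are CCND3 and CCNE1. CCND1, CCND2, CCNE2 and CDK2 have no entry there. Each window runs from 250 bases before to 50 bases after the annotated start, 5′ to 3′ on the strand of the gene, and capitals mark the E-box CACGTG, the core bound by MYC and its relatives, and the SP1 form GGGCGG on either strand.
CDK4, chr12:57752261-57752560, minus strand: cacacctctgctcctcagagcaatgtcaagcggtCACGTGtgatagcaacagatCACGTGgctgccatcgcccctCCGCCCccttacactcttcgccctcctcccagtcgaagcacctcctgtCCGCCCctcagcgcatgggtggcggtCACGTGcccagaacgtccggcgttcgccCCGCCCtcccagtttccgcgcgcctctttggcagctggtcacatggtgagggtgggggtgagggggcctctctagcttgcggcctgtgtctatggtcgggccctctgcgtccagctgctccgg
CDK6, chr7:92836524-92836823, minus strand: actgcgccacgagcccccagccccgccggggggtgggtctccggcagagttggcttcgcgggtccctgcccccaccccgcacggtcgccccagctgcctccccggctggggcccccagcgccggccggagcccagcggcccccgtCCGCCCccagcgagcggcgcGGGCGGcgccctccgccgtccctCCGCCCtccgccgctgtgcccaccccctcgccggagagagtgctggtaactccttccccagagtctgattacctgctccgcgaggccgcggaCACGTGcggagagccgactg

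The CDK4 window held 3 E-boxes and the CDK6 window 1, against 0 in the windows of CCND3 and CCNE1. Of all 35116 windows of this length, 7.26% held at least 1 E-box. The SP1 form was found 3 times in CDK4, 3 times in CDK6, 5 times in CCND3 and 7 times in CCNE1, and 45% of all windows held it. None of these 4 windows held the E2F forms TTTCGCGC, TTTGGCGC or TTTCCCGC, the CRE form TGACGTCA or the AP-1 form TGANTCA on either strand, which 0.515%, 0.652%, 1.63%, 1.85% and 7.71% of all windows held. These are matches of letters within 300 bases and were not tested as binding sites. The E-box was added to the motifs after the data were seen, and no link of these windows to RNA levels was tested.

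After CPT, U2OS cells carried more RNA of CCND2, CDK6 and CCND1 and less of CDK4, CCNE2 and CDK2, so that 6 of the 8 genes passed the threshold, an adjusted p under 0.05 (edgeR quasi-likelihood test, Benjamini-Hochberg over the 19080 genes tested). Of all those genes 16.6% were called higher and 15.3% lower, so that both directions were common, and the 3 higher and 3 lower genes are to be read against that. With the study's stricter rule, which also asks for an absolute log2 fold change over 1, 1 of the 8 genes (CCND2) was called, beside 13.5% of all genes. Between CPT and DMSO libraries, 6 of the 8 genes did not overlap, as did 30.1% of all genes tested.

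**Figure D2:**
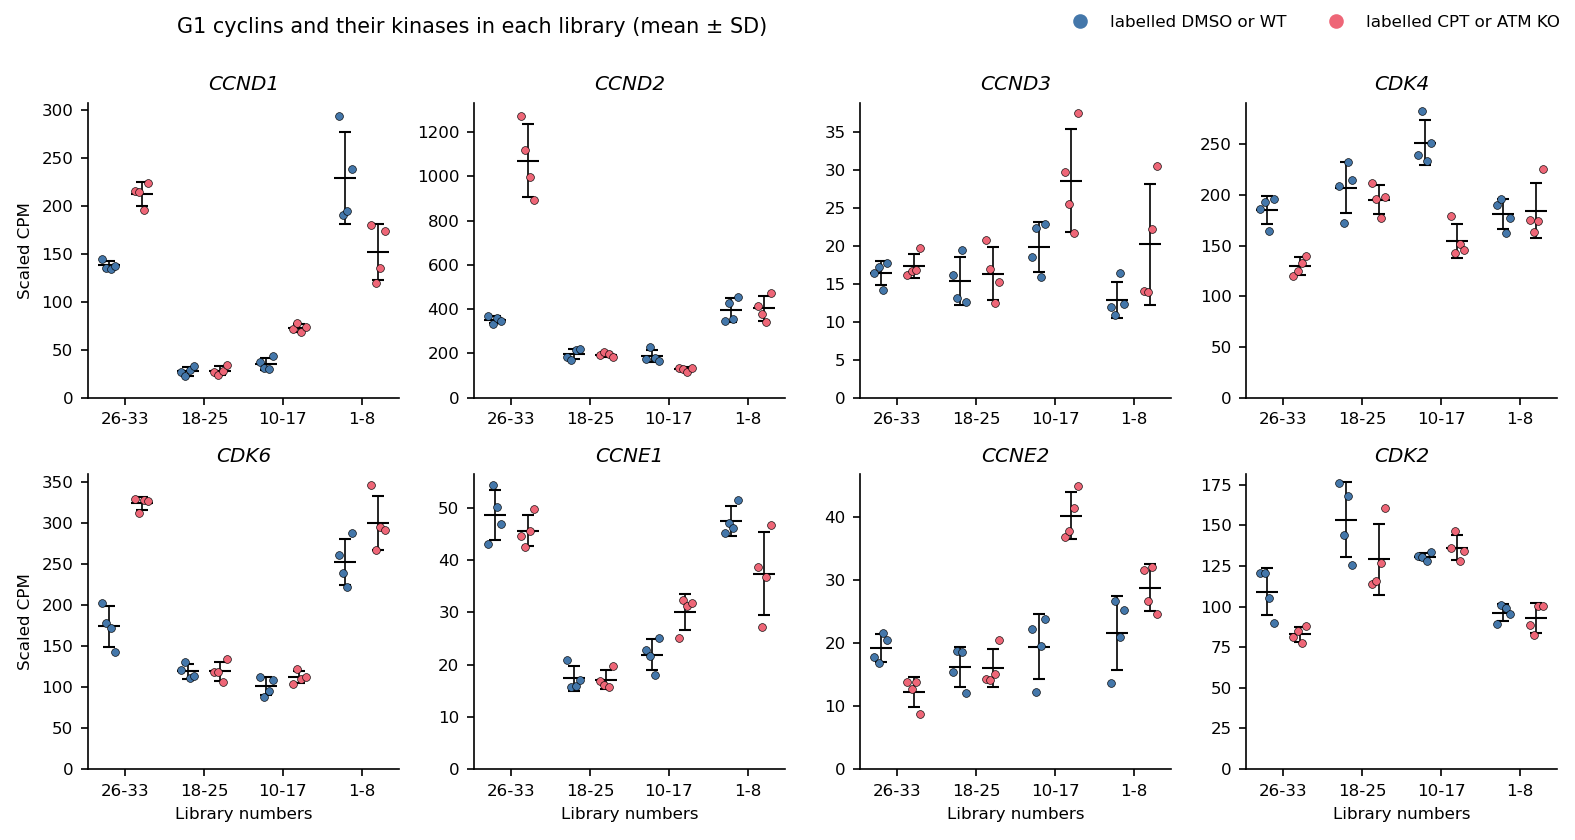
Each panel is 1 gene, with scaled CPM on a linear vertical axis that starts at 0 and the library numbers on the horizontal axis. Points are libraries, bars the mean ± SD of 4, and red marks libraries labelled CPT or ATM KO. CCND2 stood between 893 and 1274 in the U2OS CPT libraries and at 117 to 474 in the other 28.

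CCND2 changed the most. It was at 369, 332, 360 and 345 scaled CPM in the DMSO libraries 30 to 33 and at 1274, 1117, 997 and 893 in the CPT libraries 26 to 29. The lowest CPT library thus stood far above the highest DMSO library. The log2 fold change was 1.62 (SE 0.12, adjusted p = 1.15e-12), which is 3.06-fold.

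CCND1, the D-type cyclin most often amplified in tumours, rose less. Its levels were 144, 135, 134 and 137 scaled CPM in DMSO and 216, 214, 195 and 224 in CPT, with no overlap. The log2 fold change was 0.63 (SE 0.11, adjusted p = 1.96e-05). CCND3 was the rarest of the 3, at 16.4 ± 1.57 scaled CPM in DMSO and 17.4 ± 1.59 in CPT (SD, n = 4 each). Its difference was 0.09 on the log2 scale with a 95% confidence interval from -0.25 to 0.43 (adjusted p = 0.737), and it turned to -0.08 when libraries were scaled by their totals.

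As a sum, the D-type cyclins went from 505 ± 18.7 scaled CPM in DMSO to 1300 ± 163 in CPT (SD, n = 4 each). Since CCND2 grew faster than CCND1, its share of the sum went from 69.5% ± 0.973 to 82.1% ± 2.55, and that of CCND1 from 27.3% ± 0.627 to 16.5% ± 2.28. The shares of the DMSO and CPT libraries did not overlap for either gene.

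The kinases of these cyclins separated. CDK6 was at 202, 178, 172 and 142 scaled CPM in DMSO and at 328, 311, 328 and 326 in CPT, a log2 fold change of 0.91 (SE 0.11, adjusted p = 1.47e-07). CDK4 was at 187, 194, 165 and 196 in DMSO and at 120, 125, 133 and 140 in CPT, and fell by 0.51 on the log2 scale (SE 0.11, adjusted p = 5.23e-04). In DMSO the levels of both kinases lay close together, with a ratio of CDK6 to CDK4 of 0.726 to 1.08. In CPT the ratio lay between 2.33 and 2.73, and its mean went from 0.943 ± 0.161 to 2.50 ± 0.169 (SD, n = 4 each). Both kinases together went from 359 ± 25.4 to 453 ± 13.5 scaled CPM.

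The cyclin E and CDK2 arm was lower or did not pass the test. CCNE2 was at 17.9, 16.9, 21.7 and 20.4 scaled CPM in DMSO and at 13.8, 12.7, 13.8 and 8.80 in CPT. It fell by 0.64 on the log2 scale (SE 0.18, adjusted p = 0.00700), with no overlap. CCNE1 was the more abundant E-type cyclin, at 48.6 ± 4.82 in DMSO and 45.6 ± 2.998 in CPT (SD, n = 4 each). Its log2 difference of -0.08 had a 95% confidence interval from -0.34 to 0.18 (adjusted p = 0.680). The interval of CCNE2, from -1.02 to -0.27, overlapped it, and CCNE1 was not tested against CCNE2. CDK2 was at 121, 121, 105 and 90.2 in DMSO and at 81.3, 85.1, 77.4 and 88.0 in CPT, and fell by 0.39 (SE 0.12, adjusted p = 0.0130). Without library 28 its adjusted p was 0.051.

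Scaling by library totals in place of TMM moved the median log2 fold change of all genes tested from 0.01 to -0.16 in this comparison. Of all calls, 52.1% were higher with TMM and 34.9% with totals, while the 6 calls and their directions held. The U2OS markers moved with CPT as well: 4 of 5 rose, and their sum lay between 1381 and 1471 scaled CPM in CPT libraries against 566 to 623 in DMSO. Of the HEK293T markers, TUBB2B (0.64) and CKB (0.38) rose too, and their sum of 5 went from 120 to 158 up to 171 to 208, with no overlap. The part of these shifts in the changes of CCND2, CDK6 and CCND1 was not tested.

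Around these 8 genes, the regulators of G1 were looked up in lists. Their counts are to be read against the 16.6% of all genes called higher and 15.3% called lower. Of 6 CDK inhibitors tested, 1 rose and 3 fell. CDKN1A, which is induced by p53 and binds cyclin-CDK complexes, went from 98.1 ± 5.65 to 460 ± 26.8 scaled CPM (log2 fold change 2.24, SE 0.11, adjusted p = 1.85e-16). CDKN1B and CDKN1C, of the same family, fell by 1.65 and 1.39 on the log2 scale. CDKN2C, which binds CDK4 and CDK6, fell by 1.48. The median of the list was -1.36, against 0.01 for all genes tested.

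Transcripts of the G1/S boundary were mostly lower. Of 14 transcripts that E2F raises at the G1/S boundary, 12 fell and 0 rose, with a median log2 fold change of -0.77. The helicase subunits MCM6, MCM7, MCM2 and MCM5 fell by 1.80, 1.48, 1.39 and 1.08, while PCNA (0.00, adjusted p = 0.990) and CDC6 (0.06, adjusted p = 0.739) did not pass. Among 10 E2F and DP factors 4 fell and 1 rose (median -0.31), with E2F2 at -1.76, E2F1 at -1.21 and E2F8 at -1.10. Of the RB family, RBL1 fell by 0.92, and RB1 (0.04, adjusted p = 0.889) and RBL2 (-0.11, adjusted p = 0.574) did not pass. Of the later cyclins and CDK1, 4 were tested, 0 rose and 3 fell (median -0.92). CCNA2, CCNB2 and CCNB1, the cyclins of S phase and mitosis, fell by 1.15, 0.96 and 0.88, while CDK1 differed by -0.17 (adjusted p = 0.259).

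Factors that build or degrade the complexes moved both ways. Of 7 genes of CDK activation and assembly 2 rose and 2 fell, with a median of 0.05. CDK7, a kinase that activates other CDKs, rose by 0.95, and CDC37, which loads CDK4 and CDK6 onto HSP90, rose by 0.71. CKS1B and CKS2, small subunits of CDK complexes, fell by 0.73 and 0.70. Of 9 genes of cyclin and inhibitor degradation 1 rose and 3 fell, with a median of -0.14. FBXW7, which marks cyclin E for degradation, rose by 1.14, and SKP2, which marks CDKN1B, fell by 0.80.

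**Figure D3:**
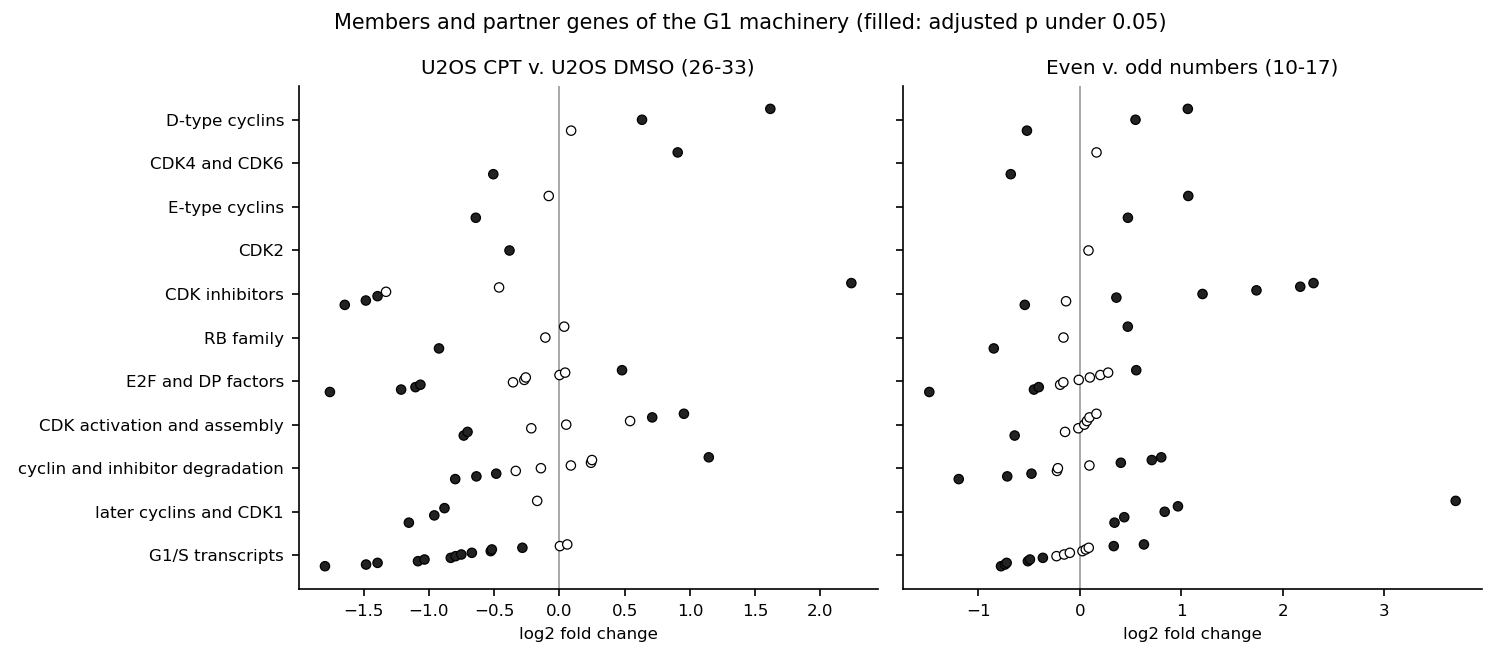
Each point is a gene, grouped by list, with its log2 fold change on the horizontal axis, on the left for U2OS CPT against DMSO and on the right for even against odd numbers of libraries 10 to 17. Filled points have an adjusted p under 0.05. On the left the G1/S transcripts lie at or below 0 except for CDC6 (0.06) and PCNA (0.00), and on the right the later cyclins all lie above 0.

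In HEK293T cells, the libraries labelled ATM KO did not differ from DMSO in any of the 8 genes at an adjusted p under 0.05 (edgeR quasi-likelihood test, 18413 genes tested), and 0 of the 8 had an unadjusted p under 0.05. Of all genes tested 0% were called higher and 0.00543% lower (1 gene), 0% with the stricter rule, while 1019 had an unadjusted p under 0.05. DESeq2 also called 0 of the 8 genes. Without library 21, 97 genes in all and still 0 of the 8 were called. Log2 differences ran from -0.23 for CDK2 (95% confidence interval -0.48 to 0.01) to 0.10 for CCND3 (-0.25 to 0.46). CCND1 differed by 0.02 (-0.27 to 0.32), CCND2 by -0.01 (-0.22 to 0.21), CDK4 by -0.07 (-0.29 to 0.14) and CDK6 by 0.01 (-0.20 to 0.22). CDK2 ranged from 114 to 161 scaled CPM in libraries 18 to 21 and from 125 to 176 in libraries 22 to 25, so that the groups overlapped, as they did for the other 7 genes. Beside them, 0 of the genes in the wider lists named above passed.

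Among libraries 10 to 17, 6 of the 8 genes differed between even and odd numbers, 4 higher and 2 lower in the even ones (19464 genes tested, edgeR quasi-likelihood test). Of all genes 17.6% were called higher and 17.3% lower, and 14% passed the stricter rule, as did 2 of the 8 genes. The groups of 4 of the 8 genes did not overlap, as was the case for 30.3% of all genes. The HEK293T marker sum was 1173 to 1273 scaled CPM in the even and 1376 to 1706 in the odd numbers, and the U2OS marker sum 58.7 to 80.9 against 21.3 to 27.2. The part of this difference in the values below was not tested.

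CCND1 was at 71.4, 77.4, 68.4 and 73.1 scaled CPM in libraries 10, 12, 14 and 16 (label U2OS ATM KO). It was at 36.8, 31.1 and 29.6 in libraries 11, 13 and 15 (label U2OS WT) and at 43.0 in library 17 (label HEK293T DMSO). The even numbers all stood higher, by a log2 fold change of 1.06 (SE 0.13, adjusted p = 1.46e-06). CCND2 was at 135, 129, 117 and 136 in the even numbers, and at 177, 229 and 178 in 11, 13 and 15 and 167 in 17. It differed by -0.52 (SE 0.12, adjusted p = 0.00122). CCND3 was at 21.8 to 37.6 in the even numbers and at 15.9 to 22.9 in the odd ones, which overlap, with a log2 fold change of 0.55 (SE 0.16, adjusted p = 0.0122). Without library 16 this became 0.42 with an adjusted p of 0.0598.

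The sum of the D-type cyclins was nearly level, at 231 ± 16.5 scaled CPM in the even and 243 ± 26.9 in the odd numbers (SD, n = 4 each). Its make-up differed: CCND1 held 31.6% ± 1.86 of it in the even and 14.6% ± 3.21 in the odd numbers, and CCND2 56.1% ± 0.885 against 77.2% ± 4.15. CDK4 was at 180, 143, 152 and 146 in the even numbers and at 239, 283, 234 and 251 in the odd ones (log2 fold change -0.68, SE 0.12, adjusted p = 7.40e-05). CDK6 differed by 0.16 (95% confidence interval -0.07 to 0.40, adjusted p = 0.282), and the ratio of CDK6 to CDK4 was 0.730 ± 0.115 against 0.405 ± 0.0682.

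Both E-type cyclins were higher in the even numbers. CCNE2 was at 36.8, 37.8, 41.5 and 45.0 scaled CPM there and at 22.2, 12.2, 19.6 and 23.9 in libraries 11, 13, 15 and 17, with no overlap (log2 fold change 1.07, SE 0.17, adjusted p = 3.16e-05). CCNE1 was at 25.01 to 32.3 against 17.9 to 25.1, a difference of 0.47 (SE 0.15, adjusted p = 0.0152) that did not pass without library 12 (adjusted p = 0.051) or 15 (adjusted p = 0.0545). CDK2 differed by 0.08 (95% confidence interval -0.14 to 0.30). Without library 17, which leaves libraries of 1 label on each side, the same count of 6 genes was called, with CCND1 at 1.17, CCNE2 at 1.18, CDK4 at -0.68 and CCND2 at -0.57. Against all 4 libraries labelled U2OS WT, library 1 among them, 1 gene (CCNE2, 1.27, adjusted p = 0.0204) was called and CCND1 turned to -0.32.

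The wider lists of libraries 10 to 17 held calls in both directions, where 17.6% of all genes were called higher and 17.3% lower. Of 7 CDK inhibitors 5 were higher and 1 lower in the even numbers, with a median of 1.21 against 0.04 for all genes tested. CDKN2B, an inhibitor of CDK4 and CDK6, was higher by 2.304 on the log2 scale, CDKN1A by 2.17, CDKN1C by 1.74 and CDKN2D by 1.21. Of the 14 G1/S transcripts 2 were higher and 6 lower (median -0.19), with CDC45 at -0.78, CDT1 at -0.74 and RRM2 at 0.63. All 5 genes of the list of later cyclins and CDK1 were higher (median 0.84), among them CCNB1 by 0.97 and CCNB2 by 0.84. CCNA1 was higher by 3.71, but at low levels, with means of 0.175 scaled CPM in the odd and 2.635 in the even numbers. RBL1 was lower by 0.85 and RB1 higher by 0.47. Of 10 E2F and DP factors 1 was higher and 3 lower, with E2F5 at -1.48 and E2F3 at 0.56. Of 9 degradation genes 3 were higher and 3 lower, with FBXW7 at 0.80 and SKP2 at -0.72. Of 7 genes of CDK activation and assembly 1, CKS1B, was lower (-0.64).

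Among libraries 1 to 8, 2 of the 8 genes differed between even and odd numbers, 1 higher and 1 lower (18591 genes tested, edgeR quasi-likelihood test), where 6.43% of all genes were called higher and 6.56% lower. None of the 8 passed the stricter rule, as did 5.24% of all genes, and the groups of 1 gene did not overlap, beside 15.1% of all genes. Of the 5 U2OS markers 3 were higher and 1 lower, with a sum of 852 to 1074 scaled CPM in the even and 659 to 865 in the odd numbers, and of the HEK293T markers CKB was higher (0.69). The part of these differences in the values below was not tested. CCND1 was at 180, 120, 135 and 174 scaled CPM in libraries 2, 4, 6 and 8 (label HEK293T CPT). It was at 190, 195 and 238 in libraries 3, 5 and 7 (label HEK293T DMSO) and at 294 in library 1 (label U2OS WT). The even numbers stood lower, by a log2 fold change of -0.59 (SE 0.16, adjusted p = 0.00598). CCND3 was at 14.1, 13.9, 22.3 and 30.6 in the even numbers and at 10.9 to 16.4 in the odd ones, which overlap (log2 fold change 0.71, SE 0.22, adjusted p = 0.0221).

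Both calls were lost without library 1, as 0 of the 8 genes then passed, with CCND1 at -0.47 (adjusted p = 0.0548) and CCND3 at 0.68 (adjusted p = 0.0629), while 1934 genes in all were still called. CCND3 also lost its call without library 3, 6, 7 or 8, and without library 8 CCNE1 passed (-0.49, adjusted p = 0.0345). The other 6 genes differed by -0.34 for CCNE1 (95% confidence interval -0.67 to -0.0042) to 0.34 for CCNE2 (-0.04 to 0.72). CCND2 was at 403 ± 55.7 in the even and 395 ± 54.5 in the odd numbers, and the ratio of CDK6 to CDK4 was 1.65 ± 0.280 against 1.39 ± 0.167 (SD, n = 4 each), with overlap. The list counts that follow are to be read against the 6.43% of all genes called higher and 6.56% called lower. Of the 14 G1/S transcripts 0 were higher and 3 lower, among them PCNA by 0.70 (median -0.26, against 0.04 for all genes tested). Of 5 later cyclins and CDK1, CDK1 was lower by 0.69. Of 9 degradation genes 3 were higher (FZR1 by 0.63, CUL1 by 0.63 and FBXW7 by 0.52) and 1 lower (RBX1, -0.78). Of 10 E2F and DP factors 2 were higher (TFDP2 by 0.77 and E2F2 by 0.72) and 1 lower (E2F5, -1.92). CKS2 was the 1 of 7 genes of CDK activation and assembly that was lower (-0.47), and CDKN2B, at 0 in all even numbers and 2.24 ± 0.837 scaled CPM in the odd ones (SD, n = 4), the 1 of 6 CDK inhibitors tested. None of the RB family passed.

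**Figure D4:**
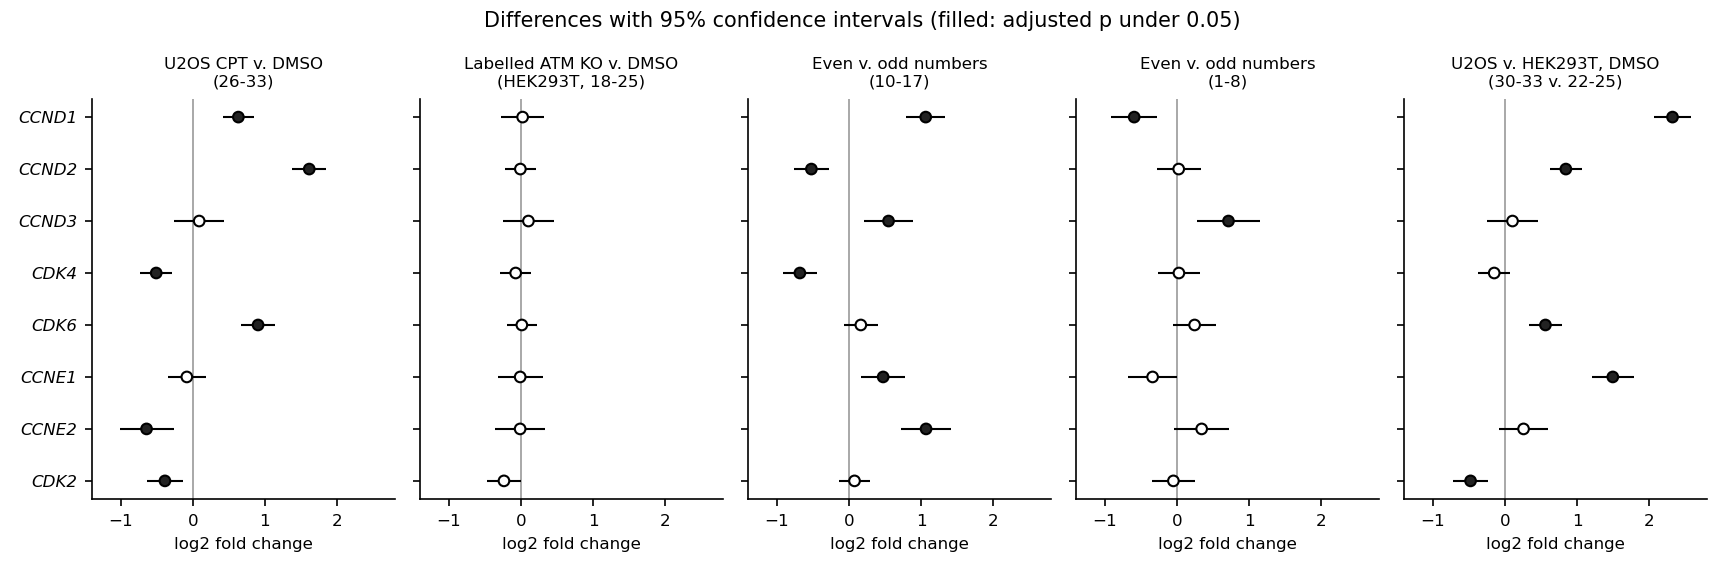
Log2 fold changes of the 8 genes (points) with 95% confidence intervals (lines) in 5 comparisons, filled where the adjusted p is under 0.05. CCND2 stands at 1.62 after CPT in U2OS cells and at -0.52 between even and odd numbers of libraries 10 to 17, and no point is filled for libraries 18 to 25.

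Between the lines without drug, 5 of the 8 genes differed between U2OS DMSO (30 to 33) and HEK293T DMSO (22 to 25), 4 higher in U2OS and 1 lower (19739 genes tested, edgeR quasi-likelihood test). Of all genes 32% were called higher and 30.1% lower in U2OS, and 39.9% passed the stricter rule, as did 2 of the 8. These 8 libraries also serve as controls of the comparisons of libraries 26 to 33 and 18 to 25. Each line is thus held by 1 set of libraries. A difference between the lines cannot be told apart from any other difference between these sets. CCND1 was at 134 to 144 scaled CPM in U2OS and at 22.1 to 33.3 in HEK293T cells, 4.999-fold higher (log2 fold change 2.32, SE 0.13, adjusted p = 1.85e-17). CCNE1 was at 43.1 to 54.4 against 15.7 to 20.8 (log2 fold change 1.49, SE 0.14, adjusted p = 3.72e-11). CCND2 (0.84, adjusted p = 2.94e-08) and CDK6 (0.56, adjusted p = 8.09e-05) were also higher in U2OS, and CDK2 was lower (-0.48, adjusted p = 9.32e-04). CCNE2 (0.26, adjusted p = 0.188), CCND3 (0.10, adjusted p = 0.627) and CDK4 (-0.15, adjusted p = 0.234) did not pass. Scaling by library totals moved the median of all genes from 0.01 to -0.21 here, with CDK4 then called lower (-0.37, adjusted p = 0.00548) and CCND3 at -0.12.

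The partners of these genes were looked up between the lines too. Of all genes tested, 32% were called higher and 30.1% lower in U2OS, and the list counts are to be read against that. Of 7 CDK inhibitors 4 were higher and 2 lower in U2OS (median 0.69, against 0.01 for all genes tested). CDKN1A was higher by 1.93 on the log2 scale (SE 0.15, adjusted p = 2.24e-13). CDKN2A, which was also used as a marker above, was at 0 to 0.309 scaled CPM in U2OS and at 222 to 310 in HEK293T cells. Of the 14 G1/S transcripts 3 were higher and 7 lower (median -0.21), with TYMS at 2.03 and CDT1 at -1.73. Of 5 later cyclins and CDK1, 4 were higher and 0 lower (median 0.63), among them CCNB2 by 1.03. The 1 gene of this list that did not pass had the largest difference, -3.57. Of the degradation genes 1 was higher and 5 lower (median -0.35), with CUL1, the scaffold of a cyclin-degrading ligase, at -2.45 and SKP2 at -1.11.

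Over the 8 arms of 4 libraries, CCND1 had its lowest levels in libraries 22 to 25 (27.7 ± 4.68 scaled CPM) and 18 to 21 (28.02 ± 4.48), then in the odd (35.1 ± 6.07) and even numbers (72.6 ± 3.78) of 10 to 17. It was higher in 30 to 33 (138 ± 4.59), the even numbers of 1 to 8 (152 ± 29.3), 26 to 29 (212 ± 12.1) and the odd numbers of 1 to 8 (229 ± 48.2). Neighbours in this order overlapped in their ranges except for the step from 35.1 to 72.6 and that from 72.6 to 138, and the step from 152 to 212. CCND2 was lowest in the even numbers of 10 to 17 (129 ± 8.46) and highest in 26 to 29 (1070 ± 164), and the arms between them ran from 188 ± 28.02 to 403 ± 55.7. CCND3 stayed between 12.9 ± 2.42 and 28.7 ± 6.78 in all 8 arms, and CDK2 between 83.0 ± 4.60 and 153 ± 23.1.

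Whether the changes themselves differed between library numbers was tested as an interaction over the 32 libraries (edgeR quasi-likelihood test, 23638 genes). The 3 contrasts below share libraries, so that their calls are not independent of each other. For libraries 26 to 33 against 10 to 17, 4 of the 8 genes differed, beside 19.1% of all genes. CCND2 differed by 2.14 on the log2 scale (SE 0.18, adjusted p = 1.37e-15) and CCNE2 by -1.71 (SE 0.26, adjusted p = 4.43e-07), in that each moved one way in libraries 26 to 33 and the other way in 10 to 17. CDK4 moved down in both, and its difference of 0.18 had a 95% confidence interval from -0.15 to 0.52 (adjusted p = 0.514). The count of 4 ran from 3 to 5 with 1 library left out, as the call of CCNE1 was lost without library 12, 13, 14, 15, 16, 31 or 32. For libraries 26 to 33 against 1 to 8, 5 of the 8 genes differed (15.7% of all genes), with CCND2 at 1.58 and CCND1 at 1.21. For 10 to 17 against 1 to 8, 5 of the 8 differed (17.7% of all genes), with CCND1 at 1.63 (adjusted p = 8.52e-10), and 3 without library 8 or 13. The call of CCNE2 among them was lost without library 3, 7, 8, 13, 14 or 16.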

How the data were processed

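RNA was extracted and QuantSeq 3′ mRNA libraries (FWD with UMIs) were sequenced in 32 samples. The deposited values are raw counts per gene, which the authors obtained from Lexogen's pipeline for FWD libraries with UMIs. The aligner, genome build, annotation and use of strand are not given in the sources used here. The table held 60107 genes, of which 56531 took a symbol from GENCODE 29. The 92 spike-in controls and 5 summary counts (10.9% to 40.6% of a library) were left out. Libraries held 1232674 to 6362433 counts on genes, so that the floor of 3 counts lay between 2.43 and 0.472 CPM, which covers counting error only.

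Libraries were grouped by label, and libraries 1 to 8 and 10 to 17 by number as well, since markers went against 14 labels. The libraries 22 to 25 were used as controls of 18 to 21. Tests used edgeR 4.0.16 in R 4.3.3 with TMM, the quasi-likelihood test, a filter that kept a gene seen with over 1 count in 2 or more of the libraries compared, and Benjamini-Hochberg adjustment over all genes tested, where the study used edgeR's likelihood ratio test. An adjusted p under 0.05 was the threshold, and the study's stricter rule added an absolute log2 fold change over 1. SEs were taken from the F statistic. Alternatives were the likelihood ratio test, DESeq2 1.42.0, RLE scaling, other filters, all libraries in 1 fit, controls by label and each library left out in turn. Scaling by library totals and the E-box motif were added after the data were seen. The procedure was tested on simulated data.

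The 8 genes and the lists around them were chosen with earlier results of these data known. From each list, up to 4 genes with the largest absolute log2 fold change past the threshold were eligible for naming, and genes that did not pass were named as contrasts after their values were seen. Libraries of 1 group differed by more than sampling noise, and none was counted as a repeat of another. Protein sequences were not analysed here. One of the U2OS markers first listed and one gene of the search by likeness are not reported here.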

Additional observations from a re-analysis of the deposited data

Results flagged for a closer look

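In 4 of 64 groups of 4 libraries, 1 per gene and arm, the lowest or highest library stood apart from the other 3 by Dixon's test, where chance alone marks about 1 group in 20. CCND2 was at 229 scaled CPM in library 13 and at 167 to 178 in the other odd numbers of 10 to 17. CDK6 was at 311 in library 27 and at 326 to 328 in the other U2OS CPT libraries. CCNE1 was at 25.01 in library 10 and at 31.2 to 32.3 in the other even numbers of 10 to 17. CCNE2 was at 20.5 in library 21 and at 14.2 to 15.1 in libraries 18 to 20.

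The interaction was tested in 3 contrasts for each of the 8 genes, and each value below is a difference of log2 fold changes. The contrasts share libraries and each follows from the others, so that the 24 tests do not count separate findings. Of all genes, 19.1%, 15.7% and 17.7% were called in them, in the order below. Changes of the same gene differed between library numbers in 14 of the 24 tests (edgeR quasi-likelihood test, adjusted over all genes). For libraries 26 to 33 minus 10 to 17 these were CCND2 at 2.14 (adjusted p = 1.37e-15), CCNE2 at -1.71 (adjusted p = 4.43e-07), CDK6 at 0.75 (adjusted p = 4.49e-04) and CCNE1 at -0.55 (adjusted p = 0.0396). The call of CCNE1 was lost without library 12, 13, 14, 15, 16, 31 or 32 and with no filter (adjusted p from 0.0525 to 0.107), and CDK2, which had no call, passed with DESeq2 (-0.48, adjusted p = 0.0108), RLE, filterByExpr and library totals, and without library 27, 29 or 33. CCND1 passed with filterByExpr, with library totals and without library 17. For 26 to 33 minus 1 to 8 they were CCND2 at 1.58 (adjusted p = 1.16e-10), CCND1 at 1.21 (adjusted p = 8.66e-07), CDK6 at 0.65 (adjusted p = 0.00297), CCNE2 at -0.997 (adjusted p = 0.00660) and CDK4 at -0.55 (adjusted p = 0.0168). The call of CDK4 was lost without library 8 and that of CDK6 with library totals, under which CCND3 and CDK2 passed. For 10 to 17 minus 1 to 8 they were CCND1 at 1.63 (adjusted p = 8.52e-10), CCNE1 at 0.78 (adjusted p = 0.00325), CDK4 at -0.74 (adjusted p = 7.48e-04), CCND2 at -0.56 (adjusted p = 0.0170) and CCNE2 at 0.71 (adjusted p = 0.0360). The call of CCNE2 was lost without library 3, 7, 8, 13, 14 or 16 (adjusted p from 0.053 to 0.117), and that of CCND2 without library 8 or 13. Since markers go against the labels of 14 libraries, no condition is attached to these differences. Cell line and condition cannot be told apart in those with libraries of 2 lines. In the study the same cells served RNAseq and mass spectrometry, for which U2OS cells were given a higher CPT dose than HEK293T cells.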

How the results depend on the processing

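In U2OS cells after CPT, 6 of the 8 genes were called under every other test, scaling and filter tried, and 5 or 6 with each library left out in turn. CCND3, which had no call, turned to -0.080 with library totals. No paired analysis was possible because the library numbers are unique to each library and no label ties a library of 1 group to one of another. Any pairing within the study's repeats is therefore not taken into account in the p-values. For libraries 18 to 25, where 0 of the 8 genes was called under the alternatives tried, the number of all genes called was 5 with the likelihood ratio test, 16 with no filter and 0 against all 8 libraries labelled HEK293T DMSO, and between 0 and 97 with 1 library left out (97 without library 21). Against those 8 libraries, of which 3 carry U2OS markers, CCND1 turned to -1.80 and CDK6 to -0.49, and with library totals to -0.032 and -0.043. With 1 library left out, signs near 0 turned, as CCND1 ran from -0.077 to 0.13, CCND2 from -0.074 to 0.057, CCND3 from -0.033 to 0.24, CDK6 from -0.045 to 0.062, CCNE1 from -0.078 to 0.085 and CCNE2 from -0.15 to 0.066.

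For libraries 10 to 17, against all 4 libraries labelled U2OS WT, 778 genes in all and 1 of the 8 were called, with CCND1 at -0.32 and CDK6 at -0.25. Leaving out 1 library left 5 or 6 of the 8. For libraries 1 to 8, DESeq2 called 1 of the 8, and against 3, 5, 7 and 17 the count was 39 genes in all and 0 of the 8, with CDK4 at -0.079. Leaving out 1 library gave 0 to 2 of the 8, with CCND2 from -0.073 to 0.085 and CDK4 from -0.093 to 0.055. Between the lines, CCND3 turned to -0.12 with library totals.

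For the differences between library numbers, CDK4 turned to -0.024 with library totals (26 to 33 minus 10 to 17). For 10 to 17 minus 1 to 8, CDK6 turned to 0.0063 with DESeq2, 0.0036 with RLE and 0.020 with edgeR's filterByExpr, and CCND3 ran from -0.38 to 0.091 with 1 library left out. There, 5 of the 8 genes were called, and 3 to 5 with 1 library left out (3 without 8 or 13). The cause was not tested for any of these. At the lowest depth, 3 counts stand for 2.43 CPM, so that counting error weighs most on CCND3 and CCNE2, which were at 8.80 to 45.0 scaled CPM.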

Other observations

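For each of the 8 genes, the genes most like it were looked up by Pearson correlation of log2(CPM + 1) over the 32 libraries, among 9573 genes with a mean CPM of at least 10. The libraries hold 2 cell lines, which sets much of any such likeness, and no test was made. CCND1 was most like IGFBP7 (r = 0.967), RECQL and TCEAL3. CCND2 was most like KRTAP2-3 (r = 0.939), SPOCK1 and MYLK, and CDK6 most like NRG1 (r = 0.957) and CNN1. CDK4 was most like KAT5 (r = 0.930), ANP32B and ZNF22. CCNE1 was most like PSMD2 (r = 0.947), DYNLL2 and FSCN1, and CCNE2 most like STK17B (r = 0.861), BBX and ASF1A. CDK2 was most like ELAVL1 (r = 0.946), SRSF4 and PTGES3. CCND3 had the lowest likeness to its nearest gene, OSER1 (r = 0.839), followed by RAB5C and NRIP3.

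The ratio of CCNE2 to CCNE1 varied widely. It was 0.310 to 0.436 in the U2OS DMSO libraries and 0.708 to 1.19 in the HEK293T DMSO libraries 22 to 25. In the even numbers of 10 to 17 it was 1.17 to 1.47, and CCNE2 was the more abundant E-type cyclin in each of these 4 libraries. In the U2OS CPT libraries it was 0.177 to 0.311. In libraries 1 to 8 it was 0.302 to 0.568 in the odd and 0.527 to 0.980 in the even numbers, and in the odd numbers of 10 to 17 it was 0.563 to 1.09, so that the ranges of libraries with U2OS and with HEK293T markers overlapped.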
